A study of Mus musculus with 6 samples.

Results

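The genes described here encode the nuclear subunits of oxidative phosphorylation, together with the assembly factors that share their names. They were chosen by symbol alone: every gene whose symbol starts with Nduf, Uqcr, Cox4 to Cox8 or Atp5, or with Sdh followed by a, b, c or d, with the pseudogene Ndufs5-ps left out. This rule took 97 of the 23282 genes in the files, namely 7 core and 29 accessory subunits of complex I, 4 subunits of complex II, 8 of complex III, 20 of complex IV, 17 of the ATP synthase and 12 assembly factors of complexes I and II. Ndufa4 and Ndufa4l2 carry complex I names and were placed with complex IV, where NDUFA4 is now known to sit. No measured value entered the choice.

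RNA was sequenced from mouse cells of a mixed 129/Sv x C57BL/6 background, and reads were counted per gene in 9 libraries of 6 samples. LSK cells, the marrow fraction without lineage markers and with Sca1 and c-Kit that holds the blood stem cells, came from 2-month-old littermates given polyIC, which switches on the MxCre transgene. The genotypes were Mll4f/f with Cre (1 library) and WT (1 library), and about 50 cells were picked by hand for each and amplified by PCR. Mll4, also called Kmt2d, encodes a histone methyltransferase that marks enhancers. MLL-AF9 cells are whole bone marrow cells (WBM) transformed in culture by a retrovirus carrying the leukaemia fusion gene MLL-AF9. The labels give a growth of 14 days for all MLL-AF9 samples. Of these, the Mll4-deleted cells (Mll4f/f + Cre, 2 libraries) had received a Cre retrovirus with a Tomato marker, and the Mll4-intact cells (Mll4f/f + EV, 2 libraries) the empty vector (EV), and both were sorted 5 days after that infection. In a further transformation, MLL4-/- marrow was infected with MLL-AF9-neo together with either FOXO3-IRES-GFP, which expresses the stress-response transcription factor FOXO3 (2 libraries), or the empty vector (1 library). The 6 libraries other than the Mll4-intact pair and the WT one thus come from cells labelled as lacking Mll4, and Cre exposure and Mll4 deletion cannot be told apart in the MLL-AF9 pair.

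Oxidative phosphorylation burns electrons from NADH and succinate in the inner mitochondrial membrane. Complexes I and II feed ubiquinone, complex III passes the electrons to cytochrome c, complex IV hands them to oxygen, and the proton gradient that results drives the ATP synthase. Blood stem cells are known for leaning on glycolysis more than their dividing progeny do, and myeloid leukaemia cells for their need of respiration.

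Totals ranged from 25895041 to 61950773 counts per library, and CPM below are counts scaled to that total. The gene Kmt2d stood at 95.6 and 73.7 CPM in the Mll4-deleted pair, 79.5 and 61.8 in the Mll4-intact pair, 102, 115 and 116 in the cells labelled MLL4-/-, and 13.9 and 1.88 in the LSK libraries labelled Mll4f/f + Cre and WT. A count over the whole gene does not show which exons were read, so it does not check a partial deletion, and the groups are named as labelled. Foxo3 stood at 1292 and 1309 CPM with the FOXO3 retrovirus and at 27.3 with the empty vector. The LSK libraries held the progenitor genes Kit (102 and 46.8 CPM), Cd34 (292 and 298) and Flt3 (212 and 221), and Csf1r was at 0 in both. By Xist and Y-linked reads, each Mll4 pair of MLL-AF9 cells holds 1 female and 1 male library. In LSK cells Xist and the Y-linked gene Ddx3y stood at 2.05 and 14.4 CPM in the library labelled Mll4f/f + Cre. They stood at 3.65 and 0.827 CPM in the WT library. By the larger of the 2 values the first is male and the second female, though Xist was low in both. The sex of the WT library is therefore uncertain, and genotype and sex cannot be told apart in the LSK comparison. The FOXO3 libraries were far closer to each other than the other pairs: the mean squared deviation from equal shares, which is 1 for counting noise alone, was 2.01 over all genes, against 201 in the Mll4-deleted and 154 in the Mll4-intact pair. The labels do not state separate cultures for the libraries of a pair. Since their libraries differ in sex, neither Mll4 pair of MLL-AF9 cells can be repeats of 1 culture. The FOXO3 pair may be, and p-values therefore rest in part on a spread that may be technical.

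Of the 97 members, 92 passed edgeR's expression filter in the MLL-AF9 libraries and were tested. The other 5 were Cox7b2 and Cox8c, at 0 counts in all 9 libraries, Cox8b and Ndufa4l2, at no more than 0.156 CPM anywhere, and Ndufs5. Ndufs5, an accessory subunit of complex I, had 0 counts in all 7 MLL-AF9 libraries and 33 and 1 counts in the LSK libraries. Its pseudogene Ndufs5-ps, outside the rule, had 18.5 to 54.9 CPM over the 9 libraries. The sources do not say how reads were shared between near-identical copies, so neither value measures Ndufs5 alone.

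Together the 97 genes took 1.33% and 1.18% of all counts in the LSK libraries labelled Mll4f/f + Cre and WT. In MLL-AF9 cells they took 1.09% and 1.21% in the Mll4-deleted pair, 0.748% and 0.802% in the Mll4-intact pair, 1.13% and 1.11% with FOXO3 and 1.25% with its empty vector. The Mll4-intact pair was therefore the lowest of all groups on this scale. That pair also had the largest share of counts in its 10 most abundant genes among the MLL-AF9 libraries, 13.4% and 17.4% against 4.59% to 7.62%, which lowers the CPM of every other gene. TMM scaling, which corrects for such genes, brought the summed level to 10650 and 11850 scaled CPM in the Mll4-deleted pair and 8407 and 10060 in the Mll4-intact pair. On that scale the groups still did not overlap, but the gap between Mll4-intact library 2 and Mll4-deleted library 1 was smaller than the gap inside either pair.

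**Figure D1:**
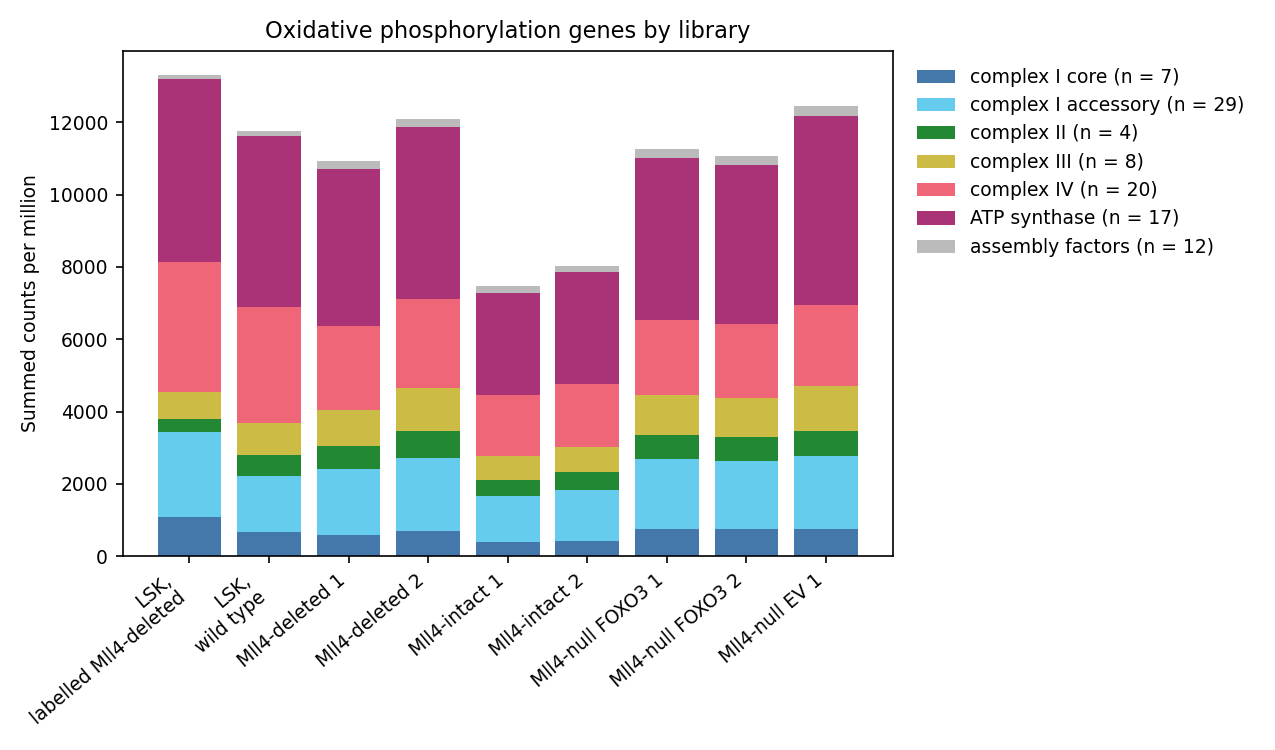
Summed CPM (y axis) of the 97 genes in each of the 9 libraries (x axis), stacked by respiratory complex, without TMM scaling. The Mll4-intact pair stands lowest at 7477 and 8024 CPM, and the LSK library labelled Mll4f/f + Cre highest at 13320.

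Levels were then compared between genes per kilobase of summed exon length. Over the 7 MLL-AF9 libraries Atp5b, the catalytic beta subunit of the ATP synthase, was the most abundant member, at 381 to 754 CPM per kilobase. Cox4i1, the ubiquitous form of the complex IV subunit 4, stood at 327 to 517 CPM per kilobase, and Cox8a, also of complex IV, at 278 to 467. Several complex IV subunits have tissue-restricted second copies, and in MLL-AF9 cells the ubiquitous copy led in every case. Cox6a1 stood at 274 to 429 CPM per kilobase and its heart and muscle form Cox6a2 at 0.237 to 11.1. Cox6b1 stood at 195 to 368 CPM per kilobase and its testis form Cox6b2 at 1.82 to 23.3. Cox7a2 stood at 134 to 239 CPM per kilobase and its muscle form Cox7a1 at 1.20 to 2.89. Cox4i2, the lung form of subunit 4, did not pass 0.860 CPM per kilobase. Among the near-equivalent genes of the ATP synthase c subunit, Atp5g3 (219 to 450 CPM per kilobase) and Atp5g2 (180 to 283) stood above Atp5g1 (14.8 to 37.4) in every MLL-AF9 library. The exon length of Atp5g1 includes all annotated isoforms, so its value per kilobase may be low for that reason alone, which was not tested.

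The promoters are shown because the subunit genes are known for sharing binding sites of NRF1, GABPA, ERR alpha and YY1, factors that serve nuclear genes of the mitochondrion. RefSeq promoter windows of GRCm38.p6 (250 bases before to 50 after the start) were found for 80 of the 97 members, 85 windows in all. Both strands were searched for GCGC, any base and TGCGC (NRF1), CCGGAAGT (GABPA), TCAAGGTCA (ERR alpha), AAGATGGCG (YY1) and GTAAACA (FOXO factors), none of which overlaps another in the windows printed. The NRF1 letters stood in 25.9% of the members' windows and 4.6% of all 32851 windows, and those of YY1 in 9.41% and 1.4%. GABPA letters stood in 5.88% and 3.89%, ERR alpha letters in 2.35% and 0.423%, and FOXO letters in 2.35% and 3.65%. By gene, NRF1 letters were found at 21 members, among them Sdha, Sdhd, Uqcrc1 and 6 ATP synthase genes, and at none of the 5 core complex I genes with a window. The 250 bases before the start are printed for 3 genes called below: Sdha (chr13:74350241-74350490, minus strand) with 3 NRF1 matches, Uqcrh (chr4:116075071-116075320, minus strand) with 1 GABPA match, and Ndufa4 (chr6:11907451-11907700, minus strand) with none. Each runs 5′ to 3′ along its gene, and capitals mark the matches.
Sdha: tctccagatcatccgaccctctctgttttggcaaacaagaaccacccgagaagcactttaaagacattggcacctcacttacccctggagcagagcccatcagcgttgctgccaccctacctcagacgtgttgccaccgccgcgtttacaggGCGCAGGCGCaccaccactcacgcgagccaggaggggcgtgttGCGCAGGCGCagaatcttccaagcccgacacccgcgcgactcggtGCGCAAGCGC
Uqcrh: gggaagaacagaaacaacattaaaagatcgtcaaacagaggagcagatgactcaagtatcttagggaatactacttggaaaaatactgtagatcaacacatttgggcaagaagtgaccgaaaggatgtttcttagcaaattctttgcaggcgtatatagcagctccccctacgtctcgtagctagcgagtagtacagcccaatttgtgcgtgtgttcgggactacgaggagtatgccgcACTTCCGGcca
Ndufa4: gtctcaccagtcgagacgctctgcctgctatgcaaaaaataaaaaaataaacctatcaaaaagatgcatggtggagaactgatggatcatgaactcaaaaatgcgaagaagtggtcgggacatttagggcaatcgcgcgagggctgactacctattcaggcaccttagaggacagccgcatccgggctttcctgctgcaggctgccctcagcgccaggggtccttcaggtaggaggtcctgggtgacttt
A match describes the letters only, and no binding was measured here. Members with and without the NRF1 letters had nearly the same median log2 fold change after Mll4 loss, 0.289 over 20 and 0.288 over 57 tested genes.

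Mll4-deleted MLL-AF9 cells were first set against Mll4-intact ones. Of the 92 tested genes, 5 rose (Ndufa4, Uqcrh, Ndufb10, Sdha and Cox6b2) and 1 fell (Cox6a2) at an adjusted p of 0.05 in edgeR's quasi-likelihood test, adjusted by Benjamini-Hochberg over 14997 genes. Over all genes 7.97% were called higher and 6.94% lower, so the members' share of calls was no larger than the background. The median log2 fold change of the members was 0.29 against -0.03 over all genes, and 83 of the 92 were positive. Without any test, 52 members lay higher in both Mll4-deleted libraries than in either Mll4-intact one, and 4 lower, after TMM scaling, where 26.9% and 30% of all genes did so.

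The members also differed inside the pairs. On the TMM scale library 2 exceeded library 1 by a median log2 difference of 0.285 in the Mll4-intact pair (86 of 92 genes higher) and 0.164 in the Mll4-deleted pair (76 of 92), where the medians over all genes were 0.03 and -0.005. The shift between the Mll4-intact libraries was thus about as large as the shift between the groups. In the FOXO3 pair the median was -0.022 (28 of 92 genes higher in library 2).

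**Figure D2:**
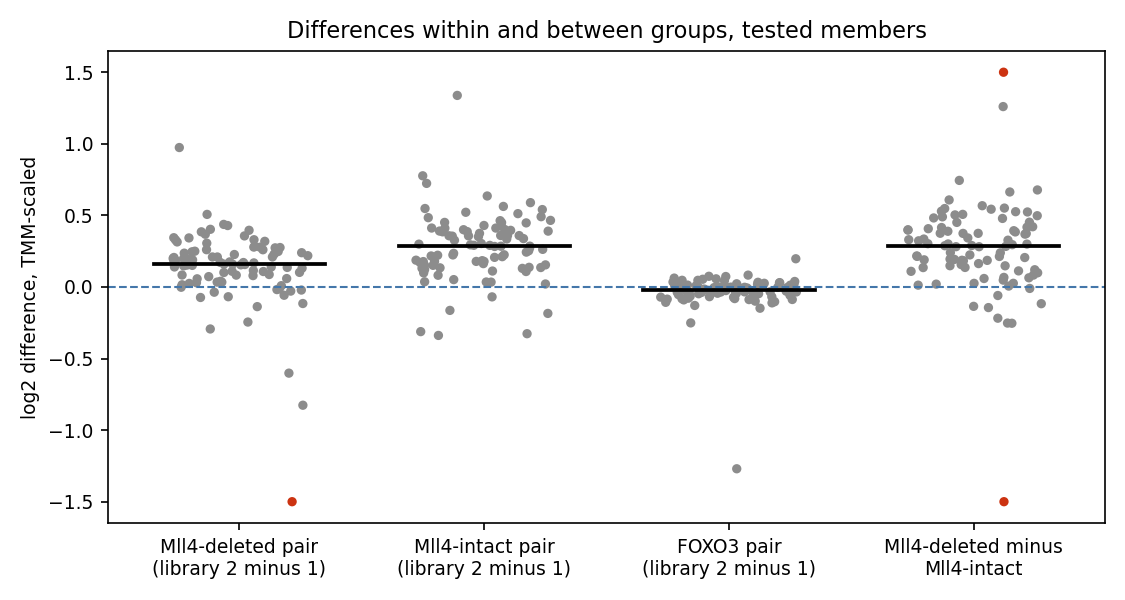
TMM-scaled log2 difference (y axis, drawn up to 1.5 either way) of each of 92 tested members, within the 3 pairs of libraries and between the Mll4 groups, with black bars at the medians and red points past the axis. The median inside the Mll4-intact pair, 0.285, is close to that between the groups, 0.29.

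In complex I none of the 7 core subunits passed the test, and their median log2 fold change was 0.41. Ndufs1, the largest subunit, which carries iron-sulfur clusters, stood at 108 and 122 CPM in the Mll4-deleted pair and 64.1 and 73.6 in the Mll4-intact pair. The groups did not overlap, and the log2 difference was 0.45 ± 0.15 (SE, adjusted p = 0.0913, edgeR). Ndufv1, which binds NADH, gave 0.50 ± 0.20 (adjusted p = 0.142, edgeR). Ndufv2 gave 0.40 ± 0.14 (adjusted p = 0.107, edgeR). Of the 28 accessory subunits tested, only Ndufb10 was called, and their median was 0.23. Ndufb10, a subunit of the membrane arm, stood at 75.5 and 78.9 CPM in the Mll4-deleted pair and at 45.1 and 44.9 in the Mll4-intact pair. The groups were well apart and the libraries of each agreed closely, with a log2 difference of 0.50 ± 0.10 (adjusted p = 0.033, edgeR). Ndufa5 (0.55 ± 0.15) and Ndufb3 (0.48 ± 0.13), also accessory subunits, missed the threshold with adjusted p of 0.0655 and 0.065 (edgeR). The X-linked subunits Ndufa1 and Ndufb11 gave 0.22 ± 0.11 and 0.29 ± 0.10 and were not called.

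In complex II Sdha rose, and the other 3 subunits were not called. Sdha, the flavoprotein that oxidises succinate, stood at 246 and 283 CPM in the Mll4-deleted pair and 152 and 150 in the Mll4-intact pair. All Mll4-deleted values were above all Mll4-intact ones, by 0.53 ± 0.12 (adjusted p = 0.0428, edgeR). Sdhb, the iron-sulfur subunit, overlapped between the groups on the TMM scale and gave 0.15 ± 0.18. Sdhd, a membrane anchor, gave 0.28 ± 0.17.

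In complex III Uqcrh rose, and the median of the 8 subunits was 0.40. Uqcrh, the hinge protein near the cytochrome c site, stood at 182 and 172 CPM in the Mll4-deleted pair and at 103 and 96.0 in the Mll4-intact pair. The groups were apart, with a log2 difference of 0.55 ± 0.10 (adjusted p = 0.0219, edgeR). Uqcrc1, a core subunit, had the larger estimate and the larger spread: 206 and 277 CPM against 119 and 131, or 0.66 ± 0.18 (adjusted p = 0.0647, edgeR). Uqcr10 gave 0.38 ± 0.11 (adjusted p = 0.0749, edgeR), and Uqcrfs1, the Rieske iron-sulfur protein, 0.16 ± 0.10.

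In complex IV 3 of 16 tested genes were called, and 2 of the 3 were tissue-restricted copies at low level. Ndufa4 stood at 155 CPM in each Mll4-deleted library and at 75.5 and 76.7 in the Mll4-intact pair. The groups were apart, and it rose by 0.74 ± 0.11 (adjusted p = 0.0152, edgeR). Cox6a2 stood at 0.161 and 0.315 CPM in the Mll4-deleted pair, which is 10 counts each, and at 6.22 and 7.52 in the Mll4-intact pair. Its log2 difference was -5.20 ± 0.42 (adjusted p = 0.0073, edgeR). Cox6b2 stood at 17.3 and 9.68 CPM in the Mll4-deleted pair and at 5.43 and 3.92 in the Mll4-intact pair, a difference of 1.26 ± 0.31 (adjusted p = 0.0492, edgeR) with a wide spread inside the first pair. The ubiquitous partners Cox6a1 (0.21 ± 0.15) and Cox6b1 (0.39 ± 0.17) were not called, nor were the catalytic core's neighbours Cox4i1 (0.21 ± 0.12) and Cox5a (0.19 ± 0.15). Cox7a2l, which joins complexes III and IV, gave -0.25 ± 0.14, and Cox7a2 (0.10 ± 0.14), Cox7b (0.29 ± 0.20) and Cox8a (0.01 ± 0.12) lay near the rest. Cox7a1 (0.61 ± 0.37) and Cox4i2 (1.68, adjusted p = 0.298, edgeR) rested on few counts.

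Cox6a2 lies end to end with Itgad, an integrin alpha chain gene of myeloid cells, and the annotated ends overlap in RefSeq's GRCm38.p6. Itgad stood at 4.02 and 6.84 CPM in the Mll4-deleted pair and at 44.0 and 60.7 in the Mll4-intact pair, a log2 difference of -3.57 ± 0.38 (adjusted p = 0.00986, edgeR). With FOXO3 it stood at 0.404 and 0.223 CPM, and at 0.819 with the empty vector. Itgad thus moved the same way as Cox6a2 after Mll4 loss, and lay the other way, uncalled, with FOXO3. Whether reads of Itgad were counted for Cox6a2 was not tested. In that annotation 16 of the members overlap another protein-coding gene.

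None of the 17 ATP synthase genes passed the test, although all 17 were positive, with a median of 0.34. Atp5g1 came nearest, at 151 and 169 CPM in the Mll4-deleted pair and 72.7 and 91.2 in the Mll4-intact pair, or 0.68 ± 0.18 (adjusted p = 0.0589, edgeR). Its companions Atp5g2 and Atp5g3 gave 0.34 ± 0.11 and 0.42 ± 0.17. The catalytic subunits Atp5a1 and Atp5b gave 0.33 ± 0.14 and 0.33 ± 0.15, Atp5md 0.53 ± 0.15 and the stalk subunit Atp5j 0.49 ± 0.14. The 12 assembly factors had the lowest class median, 0.04, and no call. Their largest difference was that of Ndufaf2, a late assembly factor of complex I, at 10.7 and 10.5 CPM against 5.84 and 6.12, or 0.54 ± 0.16 (adjusted p = 0.0727, edgeR). Ndufaf6 gave 0.30 ± 0.16 and Sdhaf2 -0.22 ± 0.09.

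The calls depended on which libraries set the spread. With the very similar FOXO3 libraries summed into 1, only Cox6a2 remained called (adjusted p = 0.0484, edgeR), and 1.23% and 0.854% of all genes were called higher and lower. When the 4 Mll4 libraries were fitted alone, edgeR called 0 members and 0 genes, with 20 members below 0.05 before adjustment, while DESeq2 on the 7 libraries called 20 members. Scaling by total counts alone called 56 members higher and 1 lower, where 19.6% of all genes were called higher and 4% lower. That scaling moved the median of all genes to 0.24 and that of the members to 0.57, so the members lay 0.33 above all genes, about as with TMM (0.32). Without Mll4-intact library 1 the members' median was 0.14 with 2 calls, and without Mll4-intact library 2 it was 0.46 with 11. Leaving out a library ended single calls too: Sdha lost its call without either Mll4-intact library (adjusted p = 0.112 and 0.0711, edgeR) and without Mll4-deleted library 2 (0.056). Uqcrh and Ndufb10 lost theirs without Mll4-intact library 1 (0.0602 and 0.0804, edgeR), and Cox6b2 without Mll4-deleted library 1 (0.0557) or either Mll4-intact library (0.127 and 0.172, edgeR). Without 1 of the FOXO3 libraries, Cox6a2 alone was called. Without the empty-vector library, 12 members were called higher and 1 lower.

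**Figure D3:**
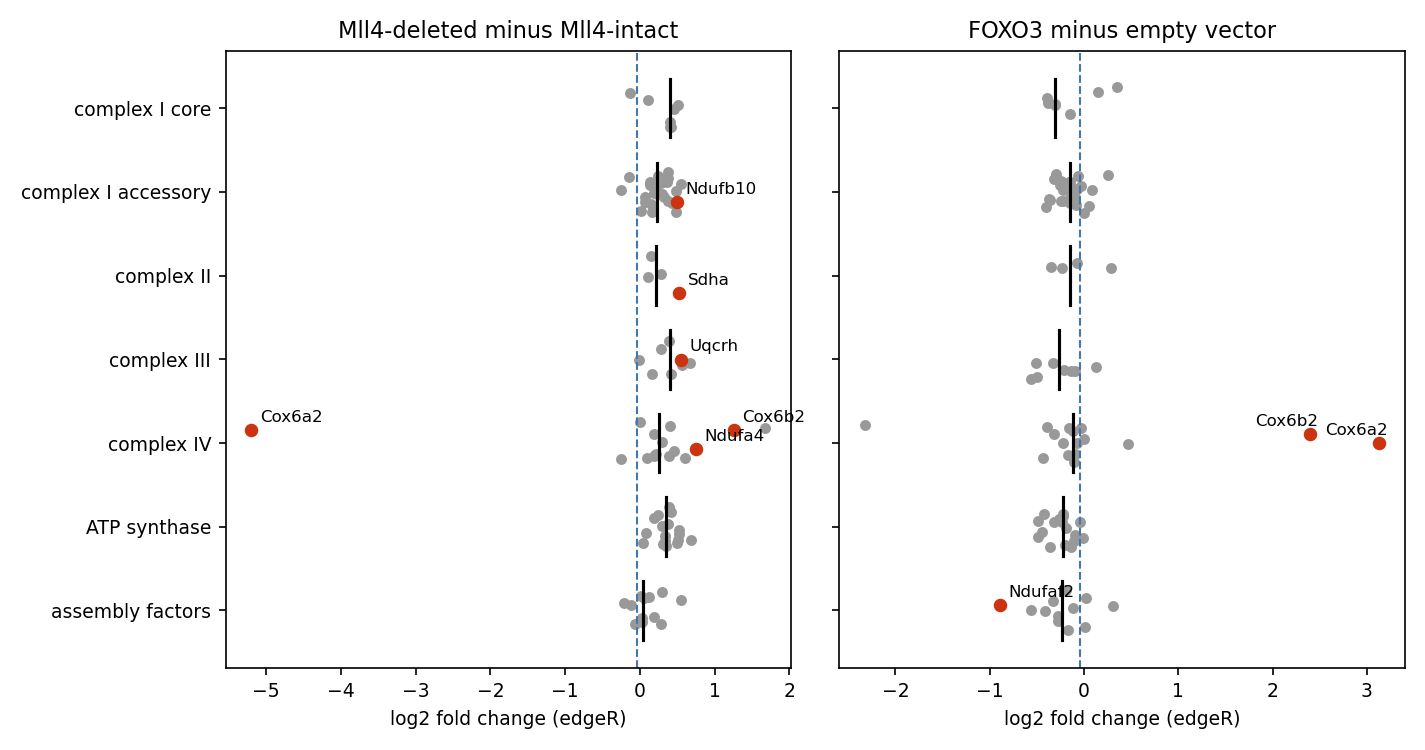
Log2 fold change from edgeR (x axis) of the 92 tested members by class (y axis), for Mll4 loss on the left and for FOXO3 on the right. Red points passed an adjusted p of 0.05, black bars are class medians and the dashed line is the median of all 14997 genes, -0.03 on the left and -0.04 on the right. Most members lie to the right of the line after Mll4 loss (83 of 92 above 0) and to the left with FOXO3 (78 of 92 below 0).

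Genes of the wider pathway were counted after Mll4 loss from lists, against the 7.97% called higher over all genes, and no gene of these lists was called lower. Of 16 genes of the citric acid cycle and pyruvate dehydrogenase, Fh1 (fumarase, 1.05 ± 0.18) and Suclg2 (0.70 ± 0.11) rose, none fell, and the median was 0.37. Of 8 genes of cytochrome c, its partners and electron entry, Etfb (0.78 ± 0.17) and Gpd2 (0.43 ± 0.10) rose, with a median of 0.33. Of 34 tested assembly factors outside the rule, Cox18 (1.10 ± 0.14) and Acad9 (0.49 ± 0.11) rose, and the median was 0.09. Of 13 genes of ubiquinone synthesis, Pdss1 (0.97 ± 0.23) and Coq6 (0.68 ± 0.17) rose, with a list median of 0.03. Hspd1 (0.72 ± 0.13) and Tomm40 (0.79 ± 0.19) rose among 10 import genes and chaperones (median 0.28), and Phb (0.77 ± 0.13) and Stoml2 (0.60 ± 0.15) among 8 genes that organise the inner membrane and its supercomplexes (median 0.28). None of the 18 regulators of mitochondrial biogenesis and none of the 10 tested carriers passed in edgeR, with 5 and 0 below 0.05 before adjustment and medians of 0.12 in both lists. The medians of the assembly factors outside the rule, the carriers, the regulators and ubiquinone synthesis were thus below the members' 0.29. The 13 subunits encoded in mitochondrial DNA were not analysed here.

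Other differences ran alongside. Of 20 cell cycle genes 17 rose and none fell, with a median of 1.35, and their sum was 3440 and 4078 CPM against 1362 and 1382. The summed macrophage markers stood at 2071 and 3497 CPM in the Mll4-deleted pair and 4036 and 4773 in the Mll4-intact pair, with 1 of 12 called lower (Itgax) and none at 0. Inside both pairs the macrophage sum, the cell cycle sum and the summed members were all higher in library 2. Between the groups the macrophage sum was lower in the Mll4-deleted pair, and the cell cycle sum and the summed members were higher. Summed neutrophil markers were 10990 and 13250 CPM against 12560 and 5831, and summed markers of mast cells, basophils and eosinophils 12640 and 1542 against 6188 and 2856, so that these groups overlapped. Of the neutrophil markers 3 of 10 were called lower and 1 higher, and of those of mast cells, basophils and eosinophils 1 of 8 lower. Megakaryocyte and platelet markers had 5 of 8 called lower, with a median of -2.35 and sums of 425.5 and 598 CPM against 753 and 551. Erythroid markers had 3 of 8 tested called lower, with sums of 332 and 216 CPM against 161 and 240. Of these sums Tfrc alone gave 301 and 206 CPM against 73.6 and 210. Stromal and endothelial markers had 2 of 5 called lower, and stem and progenitor markers 1 of 12. The part of cell cycle state and of cell mixture in the members' differences was not tested. In bulk libraries fewer cells of a type and less RNA per cell cannot be told apart.

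**Figure D4:**
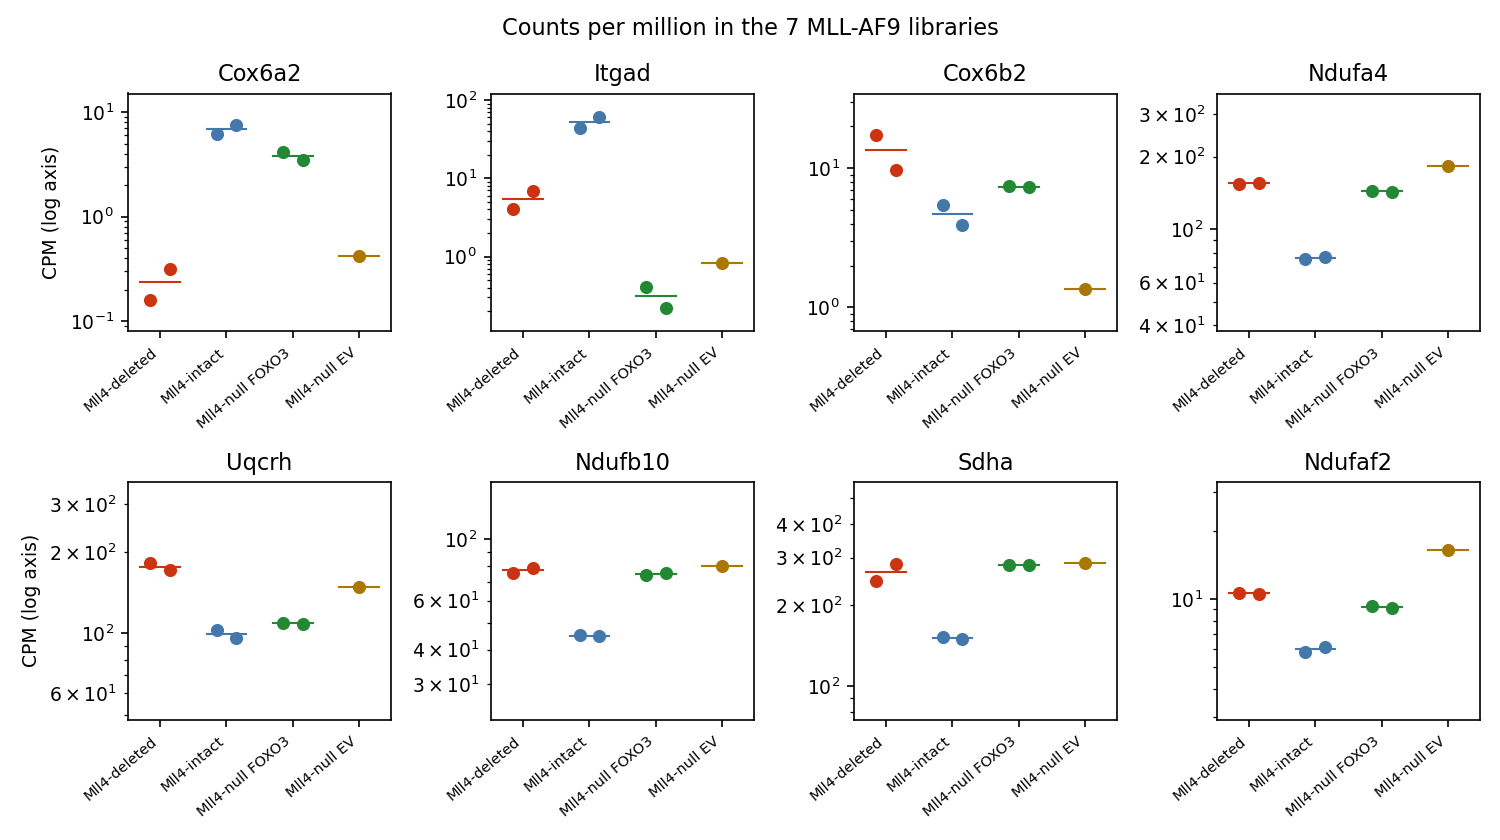
CPM (log axis) in the 7 MLL-AF9 libraries of the 7 members called in either comparison and of Itgad, with points for libraries and bars for group means. Cox6a2 lies below 0.5 CPM in the Mll4-deleted pair and in the empty-vector library, and between 3.48 and 7.52 in the other 4.

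FOXO3 expression was compared with the empty vector in cells labelled MLL4-/-, where the empty vector has a single library whose spread is taken from the other groups. Cox6a2 and Cox6b2 rose, Ndufaf2 fell, and the other 89 tested members were not called by edgeR. Over all genes 2.2% were called higher and 4.93% lower. The median of the members was -0.17 against -0.04 over all genes, and 78 of 92 were negative. Beyond the single empty-vector library on the high side lay 12 members, and on the low side 76, where 40.8% and 49.7% of all genes did so. Since the FOXO3 libraries hardly differ, such an absence of overlap is common in this comparison.

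Cox6a2 stood at 4.15 and 3.48 CPM with FOXO3 and at 0.419 with the empty vector, which is 22 counts. The log2 difference was 3.13 ± 0.50 (adjusted p = 0.0231, edgeR). Cox6b2 stood at 7.44 and 7.31 CPM with FOXO3 and at 1.35 with the empty vector, or 2.40 ± 0.43 (adjusted p = 0.0323, edgeR). These tissue-restricted copies were therefore called with FOXO3, while their partners Cox6a1 (-0.15 ± 0.18) and Cox6b1 (-0.17 ± 0.20) were not. The tissue-restricted copies Cox7a1 (0.46 ± 0.46) and Cox4i2 (-2.32 ± 1.42) rested on few counts, lay in opposite directions and were not called. Across the comparisons Cox6b2 was called higher in both, and Cox6a2 was called lower after Mll4 loss and higher with FOXO3. In the empty-vector library, also labelled as lacking Mll4, Cox6b2 at 1.35 CPM (71 counts) lay below the Mll4-intact pair (5.43 and 3.92). That is against its direction after Mll4 loss, while Cox6a2 there lay below the Mll4-intact pair, as in the Mll4-deleted pair. Ndufaf2 stood at 9.33 and 9.09 CPM with FOXO3 and 16.5 with the empty vector, or -0.89 ± 0.19 (adjusted p = 0.0498, edgeR).

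With the FOXO3 libraries summed the differences stayed about as large, at 3.16 for Cox6a2, 2.44 for Cox6b2 and -0.85 for Ndufaf2, but edgeR called 0 members, with 3 below 0.05 before adjustment, a smallest adjusted p of 0.106, and 6 calls by DESeq2 with the pair kept apart. Adding the sex of the library as a term also left 0 calls in edgeR, with 16 members below 0.05 before adjustment. The FOXO3 and empty-vector libraries all read as male by Xist and Ddx3y. The term therefore left the members' median at -0.17 and changed only the error of the test, so it does not show an effect of sex here. Without either Mll4-intact library or either FOXO3 library there were 0 calls in edgeR (24 and 3 members below 0.05 before adjustment), and without either Mll4-deleted library 6.

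Among the rest, Uqcrh came nearest in complex III, at 109 CPM in each FOXO3 library and 149 with the empty vector, or -0.50 ± 0.11 (adjusted p = 0.0635, edgeR). Uqcr10 (-0.51 ± 0.14) and Uqcrfs1 (-0.33 ± 0.12) were not called. In complex IV Ndufa4 stood at 145 and 143 CPM against 183, or -0.40 ± 0.13 (adjusted p = 0.136, edgeR), and Cox8a gave -0.44 ± 0.14. Cox4i1, Cox5a, Cox7a2, Cox7a2l and Cox7b lay between -0.23 and 0.00. In complex I the core subunit Ndufs3 stood at 57.8 and 57.4 CPM with FOXO3 against 73.3, or -0.40 ± 0.14. Ndufs1 (-0.30 ± 0.18), Ndufv1 (-0.15 ± 0.24) and Ndufv2 (-0.38 ± 0.17) were not called. The 28 accessory subunits tested lay between -0.40 and 0.25 and none was called, with Ndufa6 at -0.31 ± 0.13, Ndufa8 at -0.25 ± 0.14, Ndufa1 at -0.24 ± 0.14, Ndufb11 at -0.15 ± 0.12 and Ndufv3 at 0.25 ± 0.13.

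In complex II Sdha stood at 283 and 282 CPM against 287 (-0.07 ± 0.15), and Sdhb (-0.35 ± 0.22), Sdhc (0.28 ± 0.22) and Sdhd (-0.23 ± 0.21) were not called. All 17 ATP synthase genes were negative, with a median of -0.22 and no call. Atp5a1 stood at 777 and 766 CPM against 1045 (-0.49 ± 0.17) and Atp5pb, a stator subunit, at 271 and 272 against 367 (-0.49 ± 0.15). Atp5b gave -0.22 ± 0.18, Atp5mpl -0.36 ± 0.13, and the c subunit genes Atp5g1, Atp5g2 and Atp5g3 -0.04 ± 0.22, -0.14 ± 0.14 and -0.45 ± 0.21. Among assembly factors Ndufaf6 gave -0.56 ± 0.19 and Ndufaf3 0.30 ± 0.17. Of the wider pathway lists, Coq8a rose (1.82 ± 0.33), and Hspe1 (-0.90 ± 0.18) and Higd1a (-0.79 ± 0.14) fell. Of the 20 cell cycle genes edgeR called none, with 1 below 0.05 before adjustment and sums of 6756, 6794 and 6454 CPM. Marker sums of other cell types differed too. Summed markers of mast cells, basophils and eosinophils stood at 367 and 368.5 CPM with FOXO3 and 2771 with the empty vector, with 4 of 8 called lower and none at 0. Erythroid markers stood at 463 and 466 CPM against 1023, with 7 of 8 tested called lower. Of these sums Tfrc alone gave 457 and 462 CPM against 466, and Hbb-bs 4.15 and 3.32 against 510. Megakaryocyte and platelet markers stood at 36.5 and 37.6 CPM against 187, with none of 8 called by edgeR and 4 below 0.05 before adjustment. Neutrophil markers stood at 3522 and 3420 CPM against 8118, with 1 of 10 called lower. Stem and progenitor markers stood at 313 and 318.5 CPM against 660, with 1 of 12 called lower. Macrophage markers stood at 329.5 and 335 CPM against 376, with 4 of 12 called lower. Itgam alone gave 291 and 294 CPM against 257, while 10 of the 12 had negative log2 differences, such as Mrc1 at 1.89 and 2.07 CPM against 43.3. The part of cell mixture in the members' differences was not tested.

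In LSK cells, with 1 library per genotype, there is no test, and the intervals below are 95% exact binomial ones that cover counting error only. Of 87 members with at least 1 CPM in either library, 25 were at least 2-fold higher in the library labelled Mll4f/f + Cre and 23 at least 2-fold lower. Over all 10569 such genes 28.5% were higher and 35.4% lower, so the members were no more scattered than other genes. Their median log2 ratio was -0.03 against -0.15 over all genes.

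Among members with at least 50 CPM in either library, the 2 highest ratios were those of complex I genes and the third that of an ATP synthase gene. Ndufb10 stood at 152 CPM in the library labelled Mll4f/f + Cre and 8.35 in the WT library, a log2 ratio of 4.19 (3.99 to 4.39). Ndufs7, a core subunit, stood at 263 and 31.96 CPM (3.04, 2.94 to 3.15), and Atp5g3 at 314 and 92.3 (1.77, 1.70 to 1.83). At the other end stood Uqcrc2, a core subunit of complex III, at 51.6 and 355 CPM (-2.78, -2.87 to -2.70). Sdha stood at 25.6 and 169 CPM (-2.73, -2.85 to -2.61) and Ndufa12 at 16.4 and 85.2 (-2.38, -2.53 to -2.23). Subunits of 1 complex thus lay at both ends. By class the medians ran from -1.44 in the assembly factors and -1.06 in complex II to 0.89 and 0.98 in the accessory and core subunits of complex I. Some main subunits lay closer together, such as Cox4i1 at 648 and 451 CPM (0.52), Cox5a at 471.5 and 326.5 (0.53), Uqcrc1 at 359 and 281 (0.35) and Sdhb at 95.4 and 97.9 (-0.04). Ndufv1 stood at 96.9 and 250.3 CPM (-1.37). The catalytic ATP synthase subunits were lower in the library labelled Mll4f/f + Cre, Atp5a1 at 528 and 843 CPM (-0.67) and Atp5b at 764 and 1140 (-0.58), and the Rieske protein gene Uqcrfs1 higher, at 170 and 119 (0.52). Cox6a1 stood at 131 and 46.0 CPM (1.51) and Cox6b1 at 78.6 and 43.4 (0.86), while Cox6a2 and Cox7a1 had 0 counts in both libraries, which allows up to 3 counts in each.

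The assembly factors spread widely, with 4 of 12 at least 2-fold higher in the library labelled Mll4f/f + Cre and 6 at least 2-fold lower. Those named next were chosen after their values were seen. Sdhaf4 had 189 counts in that library and 2 in the WT library, a log2 ratio of 6.60 (4.73 to 9.66). Sdhaf1 had 682 and 130 counts (2.43, 2.16 to 2.71), and Ndufaf2, with 331 and 14 counts, was 24.3-fold higher in CPM. Ndufaf4, Ndufaf5 and Sdhaf3 had 0 counts in the library labelled Mll4f/f + Cre and 311, 319 and 216 in the WT library. Taking 3 counts as the limit of a count of 0, their CPM there were at least 101-fold, 104-fold and 70.1-fold lower. This limit covers counting error only. Whether transcripts were lost when the hand-picked cells were amplified was not tested, so these values do not bound the difference between the cells.

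**Figure D5:**
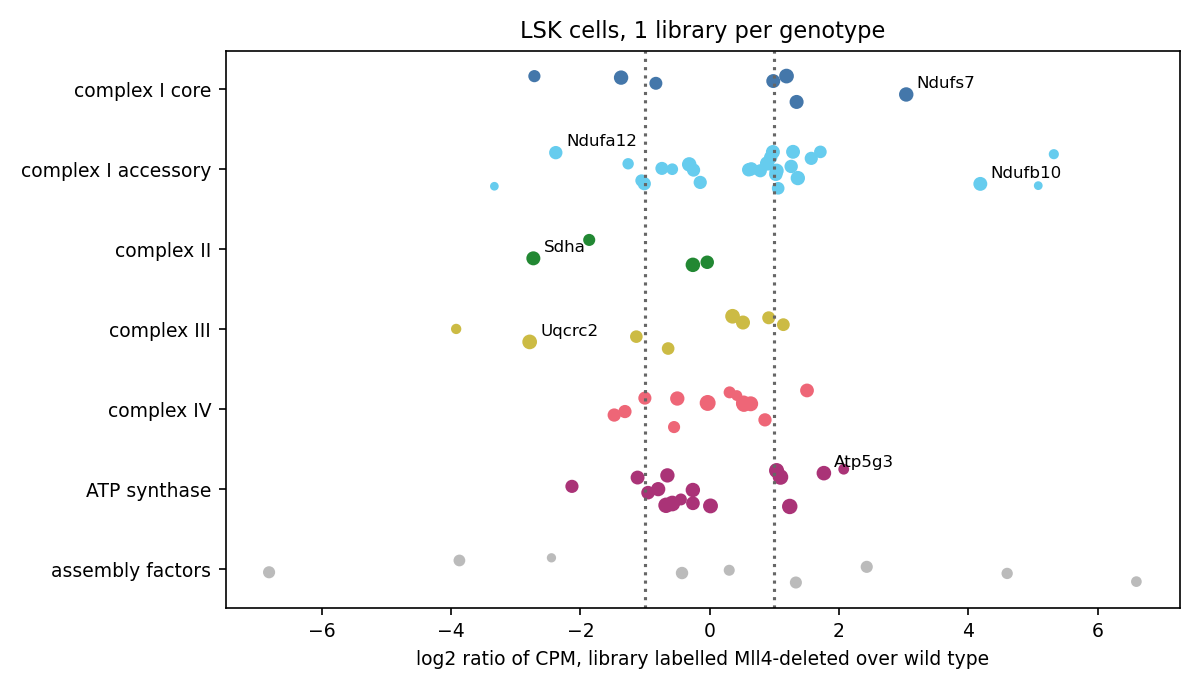
Log2 ratio of CPM (x axis), library labelled Mll4f/f + Cre over WT, of 84 members with reads in both LSK libraries and at least 1 CPM in either, by class (y axis), with larger points for higher CPM and dotted lines at 2-fold. Points of most classes spread to both sides, from Sdhaf2 at -6.82 on the left, with Ndufb10 at 4.19 among those labelled on the right.

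LSK and MLL-AF9 libraries were made by different protocols, so levels are set side by side without a test. By the labels the MLL-AF9 cells had also been grown for 14 days, unlike the LSK cells. In 11 of the 91 members that averaged 1 CPM or more in MLL-AF9 cells, the LSK mean was under a 10th of the MLL-AF9 mean. They were Atp5k, Atp5md, Cox6a2, Cox7a1, Cox7a2, Ndufa3, Ndufa5, Ndufb3, Ndufs4, Sdhd and Uqcrb, named after their values were seen. Of these, Cox6a2 and Cox7a1 averaged only 3.18 and 1.13 CPM in MLL-AF9 cells. The share over all genes was not computed, so the count is not read as a trait of the members. Ndufs4, an accessory subunit of complex I, had 0 counts in both LSK libraries and 45.3 to 61.0 CPM in the MLL-AF9 ones. Uqcrb stood at 0.348 and 5.26 CPM in LSK and 58.1 to 125 in MLL-AF9 libraries. Cox7a2l went the other way, at 1492 and 1524 CPM in LSK and 144 to 224 in MLL-AF9 libraries. By the labels' protocol the LSK cDNA was size-selected, and 6 of the 11 are among the 30 members with the shortest summed exons, 371 to 741 bases. The median log2 difference, LSK minus MLL-AF9 with 0.1 CPM added, was -0.88 in those 30, -0.03 in the 30 of middle length and -0.16 in the 31 longest. Summed exons include all annotated isoforms, so they need not follow the length of the transcripts present. The part of the protocol in these levels was not tested.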

How the data were processed

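RNA-seq read counts from 9 libraries were used as the authors deposited them, unscaled, for 23282 NCBI gene numbers. TopHat2 2.0.11, Bowtie 0.12.8 and genome build mm9 are named in the submitters' processing notes. The sources used here do not give the counting tool, annotation or use of strand, so reads of overlapping genes and near-identical copies may be shared. Names, exon lengths and promoters come from tables of GRCm38, matched by gene number or symbol (23185 genes matched, 97 did not), and all 97 members have an exon length.

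The 7 MLL-AF9 libraries were fitted together in edgeR 4.0.16 (R 4.3.3) with TMM scaling, its default filter and the quasi-likelihood test, 1 coefficient per group, and Benjamini-Hochberg adjustment over 14997 genes at a threshold of 0.05. CPM use library totals alone. Errors after ± are SE of log2 fold changes. LSK libraries were compared by CPM ratios. The test was tried on simulated data. Named members are those called, the 3 with the smallest p in each class and a fixed set of core subunits and tissue-restricted copies, and in the LSK libraries the 3 highest and lowest ratios. The members, lists and alternatives were chosen with earlier results of these data known. Alternatives were other scalings, filters and fits, DESeq2 1.42.0, summed FOXO3 libraries, sex or library number as a term, and each library left out. One gene that the naming rule takes is not reported here.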

Additional observations from a re-analysis of the deposited data

Results flagged for a closer look

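Mll4 deletion was labelled in LSK cells and in MLL-AF9 cells, and 4 of the 5 members that rose in MLL-AF9 cells lay the other way in the LSK libraries. The log2 ratio of the LSK library labelled Mll4f/f + Cre over WT was -1.31 for Ndufa4, -1.13 for Uqcrh, -2.73 for Sdha and -0.55 for Cox6b2, with counting intervals below 0, while both Mll4-deleted MLL-AF9 libraries lay above both Mll4-intact ones. Ndufb10, the remaining member that rose, lay the same way in the LSK libraries, at 4.19. Over all 10569 genes compared in LSK cells the median log2 ratio was -0.15. Of these genes 28.5% were at least 2-fold higher and 35.4% at least 2-fold lower, so ratios of this size are common there. The share of all called genes that lay the other way was not counted. With 1 LSK library per genotype the difference between the cell types was not tested. Groups of 1 or 2 libraries were too small for a search for outlying libraries.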

How the results depend on the processing

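Leaving out the only empty-vector library was not possible for FOXO3, and the other alternatives were run. After Mll4 loss 6 members were called, and 20 with DESeq2, 1 with the FOXO3 libraries summed, 12 without a filter, 0 with only the libraries compared (edgeR, 20 at an unadjusted p under 0.05), 57 with total-count scaling and 1 to 19 when a library was left out. With the sex of the library as a term 4 were called after Mll4 loss, and Sdha lost its call (adjusted p = 0.0623, edgeR). The members' median log2 fold change, 0.29, was 0.57 with total-count scaling and 0.14 to 0.46 when a library was left out. With FOXO3 3 were called, and 6 with DESeq2, 0 with the pair summed, 0 with sex as a term, 70 with only the libraries compared, where the near-identical pair alone sets the spread, and 0 to 6 when a library was left out. The LSK count of 48 past 2-fold was 40 at a minimum of 10 CPM. Cox6a2 kept its call after Mll4 loss under every alternative that tested it except the fit of only the libraries compared (adjusted p = 0.0518, edgeR), and was not tested under a mean of at least 5 CPM. Cox6b2 lost its call there in 9 settings.

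Where signs turned, the turned values lay between -0.11 and 0.0574. Not all main values were near 0: after Mll4 loss they were -0.25 ± 0.14 for Cox7a2l and -0.22 ± 0.09 for Sdhaf2. After Mll4 loss, total-count scaling gave 0.0574 for Sdhaf2 and 0.0164 for Cox7a2l, leaving out a library gave -0.0604 to 0.39 for Sdhb, -0.0804 to 0.33 for Cox7a2 and -0.10 to 0.12 for Cox8a, and Cox8a was -0.00752 under a mean of at least 5 CPM. With FOXO3, Atp5g1 was 0.00681 with the pair summed, 0.00886 with total-count scaling and -0.053 to 0.0212 when a library was left out, Cox7a2 was 0.00493 and 0.0113 in the first and second of these settings, and Cox7b was -0.11 with the replicate block. The cause of these changes was not tested. The library numbers stand in file names alone. Deviations of same-numbered libraries correlated at 0.24 between the Mll4 pairs and at 0.018 and 0 between these and the FOXO3 pair, so the numbers are not shown to pair the libraries. By Xist and Y-linked reads, library 1 was female in the Mll4-deleted pair and male in the Mll4-intact pair, and library 2 the reverse. Same-numbered libraries of these pairs thus do not share a donor. With the number as a replicate block 9 members were called after Mll4 loss and 2 with FOXO3.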
